A study of Drosophila melanogaster with 16 samples.

Results

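The genes described here are 10 Drosophila genes that specify the R8 cell and the other photoreceptors behind the morphogenetic furrow of the eye disc: ato, sca, sens, boss, sev, phyl, ro, gl, lz and pros. They were taken by FlyBase symbol from the authors' tables of changed genes, which held 6774 different genes in all, and each of the 10 was found in at least 3 of the 4 tables. RNA was sequenced from eye discs of L3 larvae, the epithelia that form the adult eye and head. The mutant groups were labelled Ez731 and Suz12, both on the strain FRT2A, PH505 on FRT19A, and Psc Suz2 1.b8 on FRT42D (here Psc-Suz2), and the controls were wild-type discs of FRT2A, FRT19A and FRT42D, so that every group carried an FRT recombination site. Ez731 and Suz12 shared the FRT2A control. Each group was 1 sample that stood for 2 replicates per its label, with no value per replicate, so no spread between replicates can be given and p-values are those of the authors' edgeR test. The sources used here do not say what share of the cells of a mutant disc was mutant.

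As background, the furrow sweeps across the eye disc and leaves ordered clusters of neurons behind it. The proneural protein Atonal is first expressed at the furrow and is then restricted to a single R8 founder cell per cluster, and the R8 cell starts the recruitment of the other photoreceptors through the EGFR and Sevenless receptor tyrosine kinases. Polycomb group proteins hold developmental genes silent. E(z) and Su(z)12 belong to PRC2, which methylates histone H3 at lysine 27, while PH, Psc and Su(z)2 belong to PRC1.

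The deposited tables give a log2 fold, a log2 CPM (counts scaled to library size, CPM) and a p-value per gene, and list a gene only where its false discovery rate is under 5%. The level of a gene in the mutant and in the control discs, called its implied CPM here, was worked out from the deposited log2 fold and log2 CPM, taking the second as the log2 of the mean CPM of both groups. The FRT2A control tests this reading, because it was implied independently by 2 tables. Over the 631 genes listed in both the Ez731 and the Suz12 table, the FRT2A level differed by a median of 0.0182 on the log2 scale and by at most 0.0205 for 90% of the genes, while the mutant levels differed by a median of 0.315 (absolute log2 differences). The near match of the group read as control places FRT2A in the denominator of both folds.

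**Figure D1:**
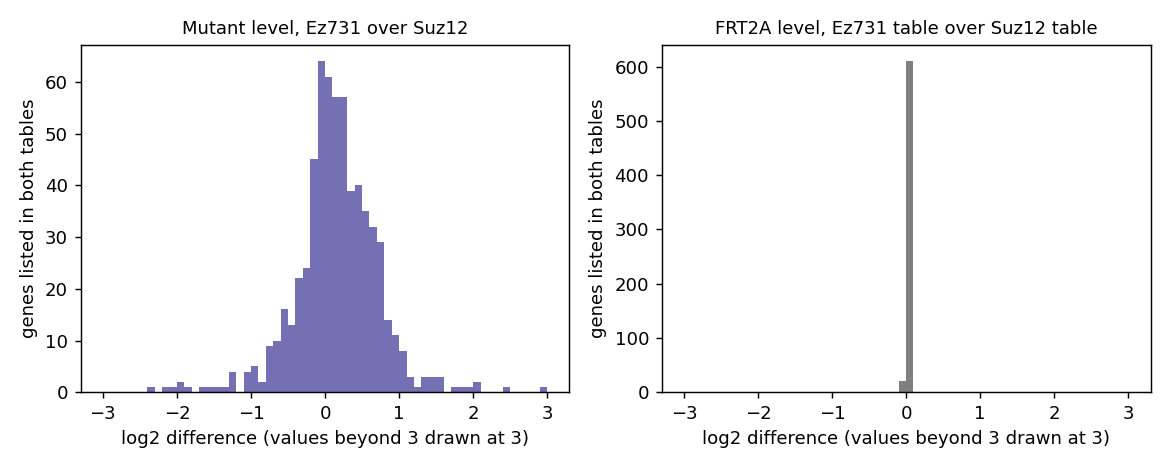
Log2 differences of implied CPM over the 631 genes listed in both PRC2 mutant tables, as counts of genes per bin of the difference, for the mutants (left) and for their shared FRT2A control (right). The control levels lie within a narrow peak near 0 (largest difference 0.082), and the mutant levels spread up to a difference of 3.09.

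The direction of the PH505 table was checked in the same way against other controls. Over 1977 genes listed in both the PH505 and Psc-Suz2 tables, the FRT19A level as labelled differed from the FRT42D level by a median of 0.185 (absolute log2 difference), and by 0.568 if the PH505 fold were turned round. Over 478 genes listed in both the PH505 and Ez731 tables, it differed from the FRT2A level by 0.356 as labelled and by 0.837 if turned. The Psc-Suz2 table was checked likewise over 692 genes listed in both it and the Ez731 table. There the FRT42D level differed from the FRT2A level by 0.263 as labelled and by 2.18 if the Psc-Suz2 fold were turned. In the authors' deposited table labelled PH505, the targeted genes ph-p and ph-d had log2 folds of 0.78 and 0.90, so no fall of their transcripts bears out the label. The sources used here do not say whether this mutation lowers these transcripts, so their level cannot decide the direction. In the authors' deposited tables E(z) had a log2 fold of −0.99 in Ez731, and Psc one of −3.94 in Psc-Suz2. Su(z)12 is not listed in the Suz12 table, nor Su(z)2 in the Psc-Suz2 table.

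All 10 genes were lower in Ez731, in Suz12 and in Psc-Suz2 discs than in their controls, and 9 were lower in PH505 discs, where pros is not listed. Median levels of the listed members were 44.4% of the control in Ez731, 28.2% in Suz12, 48.9% in PH505 and 2.47% in Psc-Suz2 discs. Among all genes the authors tested, 6.41% were called lower in Ez731, 8.73% in Suz12, 14.6% in PH505 and 33.9% in Psc-Suz2. The members and the gene lists described below were chosen with earlier results of these data known. Their counts beside these shares are therefore description and not independent evidence. The median log2 folds of the members in the authors' deposited tables were −1.17, −1.82, −1.03 and −5.34 in the order Ez731, Suz12, PH505 and Psc-Suz2, beside −1.04, −1.14, −0.90 and −0.97 over all genes listed as lower. None of the 10 was listed as higher in any table, where 3.46%, 5.89%, 12.1% and 35.5% of the tested genes were called higher. At a false discovery rate of 1%, 9, 10, 9 and 10 members were lower, beside 4.58%, 6.69%, 11.3% and 30.0% of all tested genes. With a change of at least 2-fold it was 9, 10, 6 and 10 members beside 3.44%, 5.11%, 6.19% and 16.7%, and with a log2 CPM at or above the table's median 7, 7, 5 and 6 members beside 3.1%, 4.15%, 6.27% and 15.3%. In bulk RNA from whole discs, fewer cells of a type and less RNA per cell cannot be told apart.

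**Figure D2:**
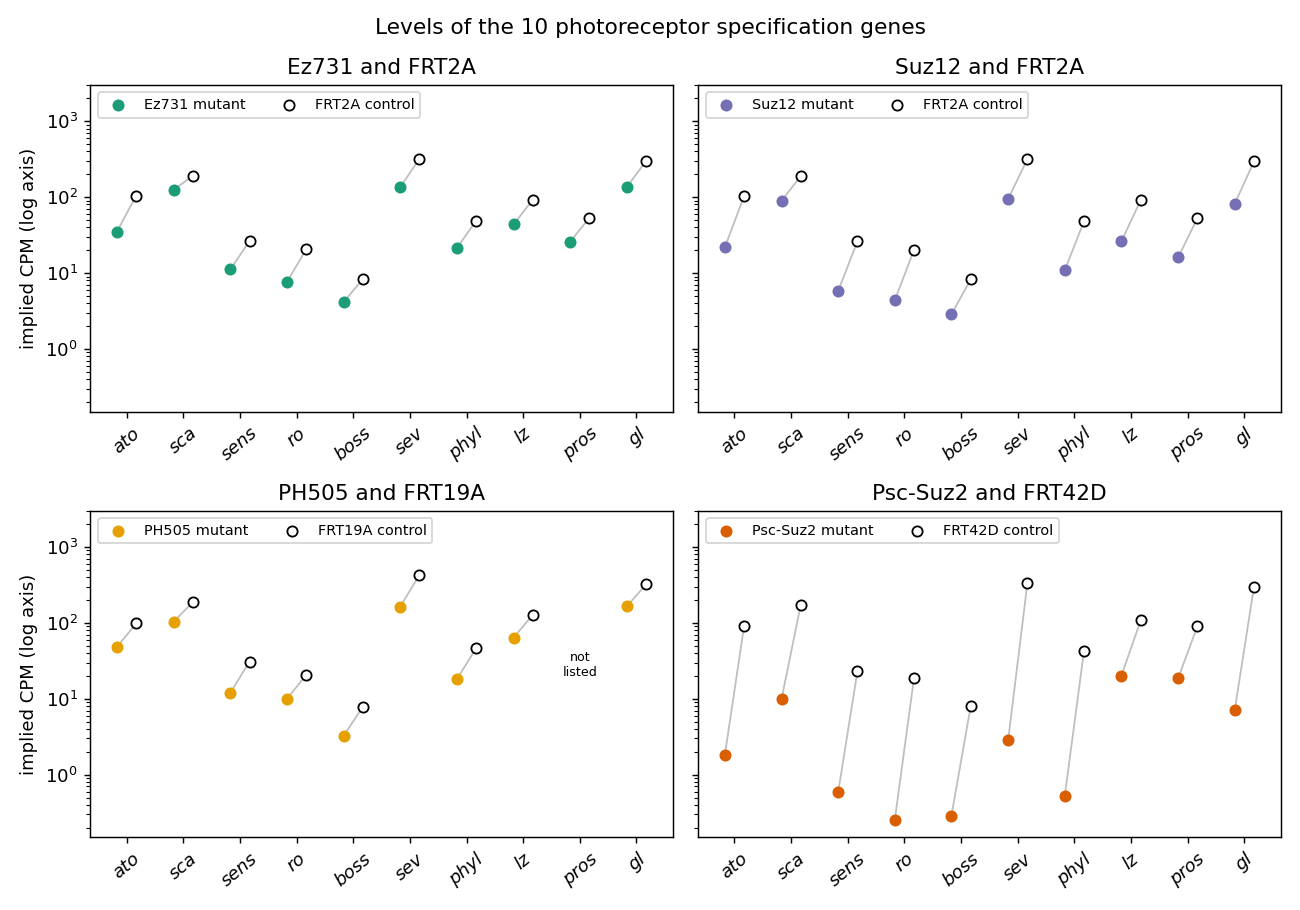
Implied CPM of each gene (log axis) in mutant discs (filled points) and in the FRT control of the same table (open points), 1 sample per group with no error bars. Every mutant point lies below its control, and in Psc-Suz2 the points of ro, boss, phyl and sens are under 1 CPM. Levels compare within a gene, since CPM takes no account of gene length.

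The genes that choose the R8 cell are ato, which encodes the proneural bHLH factor, sca, which encodes a secreted protein that spaces the R8 cells, and sens, which encodes the zinc finger factor that maintains R8 identity. The level of ato was 35.1 CPM in Ez731 and 21.8 CPM in Suz12 discs, against 104.5 CPM in FRT2A, 48.2 CPM in PH505 against 98.1 CPM in FRT19A, and 1.82 CPM in Psc-Suz2 against 91.2 CPM in FRT42D. The controls lay close together, and ato was the member with the least left in both PRC2 mutants, at 33.6% and 21.2% of FRT2A. Its log2 folds in the authors' deposited tables were −1.57, −2.24, −1.03 and −5.65 (edgeR adjusted p = 7.34e-27 in Ez731, 6.03e-44 in Suz12, 1.25e-12 in PH505 and 1.29e-230 in Psc-Suz2).

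For sca the values were 123.9 CPM in Ez731 and 89.4 CPM in Suz12 discs, against 191.4 CPM in FRT2A, 103.4 CPM in PH505 against 187.2 CPM in FRT19A, and 9.87 CPM in Psc-Suz2 against 173 CPM in FRT42D. It kept the most of the 10 genes in Ez731 (64.7% of the control) and Suz12 (47.3%), and the most of the 9 listed genes in PH505 (55.3%), but only 5.71% in Psc-Suz2. The smallest of its changes was a log2 fold of −0.63 in the authors' deposited Ez731 table (edgeR adjusted p = 1.74e-06). For sens, 11.1 CPM in Ez731 and 5.82 CPM in Suz12 discs stood against 26.3 CPM in FRT2A, 12 CPM in PH505 against 30.9 CPM in FRT19A, and 0.588 CPM in Psc-Suz2 against 23.1 CPM in FRT42D. The gene sens, which lies downstream of ato in the R8 cell, fell in all 4 tables, with deposited log2 folds by the authors of −1.24, −2.17, −1.36 and −5.30.

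The genes for the ligand, the receptor and a target of the Sevenless signal, by which R8 induces the R7 cell, were all lower. The ligand gene boss, expressed by R8, was at 4.15 CPM in Ez731 and 2.88 CPM in Suz12 discs against 8.3 CPM in FRT2A, 3.25 CPM in PH505 against 7.82 CPM in FRT19A, and 0.29 CPM in Psc-Suz2 against 8.1 CPM in FRT42D. Its control level was nearly the same in the 3 strains. The authors' deposited call for boss in Ez731 (log2 fold −1.0, edgeR adjusted p = 0.0195) was the weakest among the members and the only one above a false discovery rate of 1%.

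The receptor gene sev stood at 135 CPM in Ez731 and 94.5 CPM in Suz12 discs against 320.7 CPM in FRT2A, at 163.9 CPM in PH505 against 427.5 CPM in FRT19A, and at 2.85 CPM in Psc-Suz2 against 334.2 CPM in FRT42D. No other member fell as far in PH505 (38.3% of the control) or in Psc-Suz2 (0.854%), where its log2 fold was −6.87 in the authors' deposited table. The target gene phyl encodes an adaptor that, with Sina, leads to the breakdown of the repressor Ttk. It was at 21.3 CPM in Ez731 and 10.9 CPM in Suz12 discs against 49 CPM in FRT2A, at 18.1 CPM in PH505 against 46.4 CPM in FRT19A, and at 0.53 CPM in Psc-Suz2 against 43.2 CPM in FRT42D. The remaining level of phyl in Psc-Suz2, 1.23% of the control, was the second lowest after sev.

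The homeobox gene ro acts in R2 and R5 and represses R8 fate, and gl encodes a zinc finger factor that the cells behind the furrow need to become photoreceptors. Levels of ro were 7.61 CPM in Ez731 and 4.39 CPM in Suz12 discs against 20.4 CPM in FRT2A, 10.03 CPM in PH505 against 20.5 CPM in FRT19A, and 0.257 CPM in Psc-Suz2 against 19 CPM in FRT42D. Levels of gl were 135.8 CPM in Ez731 and 82.1 CPM in Suz12 discs against 299.7 CPM in FRT2A, 165.3 CPM in PH505 against 321.1 CPM in FRT19A, and 7.18 CPM in Psc-Suz2 against 300.9 CPM in FRT42D. In log2 folds of the authors' deposited tables, ro was at −1.43, −2.21, −1.03 and −6.21 and gl at −1.14, −1.85, −0.96 and −5.39. A gene that acts against R8 fate and the genes that act for it were lower in the same discs.

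The last members act in cells recruited later, lz as the Runx factor of R1, R6, R7 and the cone cells, and pros as a homeobox factor of R7 and the cone cells. The level of lz was 43.7 CPM in Ez731 and 26.3 CPM in Suz12 discs against 92.5 CPM in FRT2A, 63.8 CPM in PH505 against 127.5 CPM in FRT19A, and 20.2 CPM in Psc-Suz2 against 108 CPM in FRT42D. The level of pros was 25.9 CPM in Ez731 and 16 CPM in Suz12 discs against 53.3 CPM in FRT2A, and 18.6 CPM in Psc-Suz2 against 90.3 CPM in FRT42D. In Psc-Suz2 discs these 2 genes stood apart, with 18.7% (lz) and 20.6% (pros) of the control left, against 0.854% to 5.71% for the other 8. In Ez731 and Suz12 discs they lay within the range of the others.

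**Figure D3:**
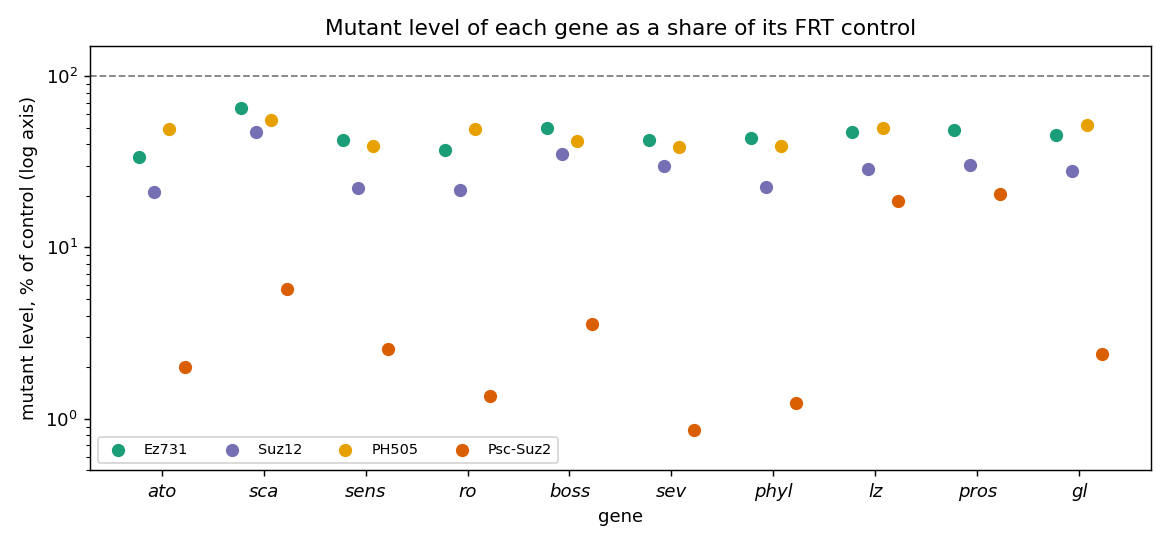
Mutant level of each gene as a percentage of its FRT control (log axis), 1 point per mutant, with the dashed line at 100%. In Psc-Suz2, lz (18.7%) and pros (20.6%) lie above the other 8 genes, and each Suz12 point lies below the Ez731 point of the same gene.

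Both genes also act outside the retina, lz in the crystal cells of the blood and pros in neural lineages. In Psc-Suz2 discs 7 of 9 hemocyte markers were listed, all 7 higher, and their summed level was 410.8 CPM against 136.8 CPM in FRT42D, with eater and crq not listed. In the other 3 tables the listed hemocyte markers were lower (6, 6 and 5 of 9), with sums of 142.8 CPM in Ez731 and 200.6 CPM in Suz12 against 412.1 CPM in FRT2A, and of 106.2 CPM in PH505 against 217.7 CPM in FRT19A. Of all tested genes, 6.41%, 8.73% and 14.6% were called lower in Ez731, Suz12 and PH505. In Psc-Suz2 33.9% were called lower and 35.5% higher. Of 5 neuroblast markers, dpn, mira, wor and ase were lower in Psc-Suz2 in the authors' deposited table (log2 folds of −3.18, −3.68, −2.47 and −4.60) and insc was higher (3.75). The part of blood or neural cells in the levels of lz and pros was not tested.

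The call for pros in Psc-Suz2 rested on a much larger p than its fold and level would give for most genes. In the authors' deposited table its edgeR adjusted p was 1.06e-07, and that of lz, at a similar log2 fold and log2 CPM (−2.42 and 6.0 for lz, −2.28 and 5.77 for pros), was 9.39e-111. Of 22 genes within 0.3 of the log2 fold and 0.5 of the log2 CPM of pros, it had the largest p, and the median unadjusted p of these 22 in the authors' deposited table was 1.71e-85. The control level of pros also differed most between strains among the members, at 90.3 CPM in FRT42D and 53.3 CPM in FRT2A, each on its own table's normalization. In the current gene table, 5 other genes overlap the span of pros, and the sources used here do not say whether the authors' counting told them apart. For sca, sev and ro it is 1 gene each, and for the other 6 members none.

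The 4 mutants differed in how far they lowered the same genes. Every member was lower in Suz12 than in Ez731 discs, with a ratio of implied CPM between 0.512 (phyl) and 0.722 (sca) and a median of 0.611. Over the 403 other genes listed as lower in both, the median of this ratio was 0.837, with quartiles of 0.691 and 0.988. In PH505 discs the 9 listed genes kept 38.3% to 55.3% of their FRT19A level, a narrower range than the 33.6% to 64.7% in Ez731, and their order differed: sev and sens kept least in PH505, ato and ro in Ez731. In the authors' deposited PH505 table the log2 folds of the members ran from −1.38 to −0.86. For Psc-Suz2 the range was −6.87 to −2.28, and the highest member in that deposited table of the authors lay at the 13.6th percentile of all listed folds. These differences between mutants could not be tested, since the tables hold no spread between replicates, and neighbouring genes in each order may not differ beyond it.

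Other genes of eye development were lower in the same tables, among them proneural and Notch genes, later transcription factors and retinal determination genes. In the authors' deposited tables, 6 of 17 proneural and Notch genes were lower in Ez731, 10 in Suz12, 11 in PH505 and 15 in Psc-Suz2, with none higher. Of all tested genes, 6.41%, 8.73%, 14.6% and 33.9% were called lower in the same order. The listed proneural and Notch genes had median log2 folds of −1.03, −1.43, −1.11 and −2.98 in the authors' deposited tables. Over all genes listed as lower there, the medians were −1.04, −1.14, −0.90 and −0.97, so in Ez731 these genes fell no further. The Notch targets E(spl)mgamma-HLH (−1.71, −2.42, −1.12 and −3.75) and E(spl)mdelta-HLH (−1.07, −1.56, −1.07 and −6.27) are expressed around the furrow, and E(spl)m8-HLH stood at −1.0, −1.70, −1.24 and −4.69, all as log2 folds of the authors' deposited tables. E(spl)m5-HLH, E(spl)m7-HLH and neur, which encodes a ubiquitin ligase for Notch ligands, were lower in the authors' deposited tables too. The log2 fold of neur in Psc-Suz2 (−0.66) lay among its folds in the other mutants (−0.70, −1.10 and −0.59) in the authors' deposited tables.

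Of 16 later photoreceptor and cone transcription factor genes, 7 were lower in Ez731, 13 in Suz12, 13 in PH505 and 14 in Psc-Suz2. Of all tested genes, 6.41%, 8.73%, 14.6% and 33.9% were called lower in the same order. The listed genes, higher ones included, had median log2 folds of −0.68, −1.24, −0.87 and −3.97 in the authors' deposited tables. Over all genes listed as lower there, the medians were −1.04, −1.14, −0.90 and −0.97. Log2 folds in the authors' deposited tables were −1.21, −1.99, −0.97 and −4.61 for dan and −1.15, −1.87, −1.0 and −5.32 for danr, which act with ato. They were −0.63, −1.46, −0.94 and −6.25 for scrt and −0.76, −1.60, −0.76 and −4.53 for nerfin-1, both neuronal zinc finger genes, in the authors' deposited tables. B-H1 of R1 and R6 stood at −0.59, −1.48, −0.85 and −5.17 and B-H2 at −0.69, −1.47, −0.81 and −3.79 in the same deposited tables of the authors. The exceptions were mirr, a dorsal selector gene (0.57 in Ez731 and 0.54 in PH505, but −1.45 in Psc-Suz2), ct of the cone cells (0.43 in PH505 and 0.68 in Psc-Suz2, but −0.41 in Suz12) and sv (1.07 in Psc-Suz2, but −1.04 in Suz12 and −0.87 in PH505), as log2 folds of the authors' deposited tables.

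Some genes for neuronal products were lower as well. Of 23 such genes, 4 were lower in Ez731, 8 in Suz12 and 13 in PH505, with none listed as higher and the rest not listed. In Psc-Suz2 15 were lower and sns, which encodes an adhesion protein and is also known from muscle, was higher (2.20 in the authors' deposited table). Of all tested genes, 6.41%, 8.73%, 14.6% and 33.9% were called lower in the order Ez731, Suz12, PH505 and Psc-Suz2. The listed genes, sns included, had median log2 folds of −0.76, −1.14, −0.85 and −2.71 in the authors' deposited tables. Over all genes listed as lower there, the medians were −1.04, −1.14, −0.90 and −0.97, so in Ez731 and PH505 these genes fell no further. The neuronal RNA-binding gene elav was at 132.1 CPM in Ez731 and 101.4 CPM in Suz12 discs against 219.6 CPM in FRT2A, at 141.6 CPM in PH505 against 239.7 CPM in FRT19A, and at 58.2 CPM in Psc-Suz2 against 229.6 CPM in FRT42D. It thus kept more of its level than ato, sev or phyl in every table. Further log2 folds in the authors' deposited tables were −0.79, −1.47, −0.84 and −3.61 for the cytoskeletal gene futsch, −0.81, −1.35, −0.85 and −4.18 for the adhesion gene rst, and −0.72, −1.25, −1.10 and −2.91 for Nrt, another adhesion gene. Appl and kirre, not listed in Ez731, stood at −1.11, −1.04 and −5.48 and at −1.18, −0.90 and −3.19 in the authors' other 3 deposited tables.

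**Figure D4:**
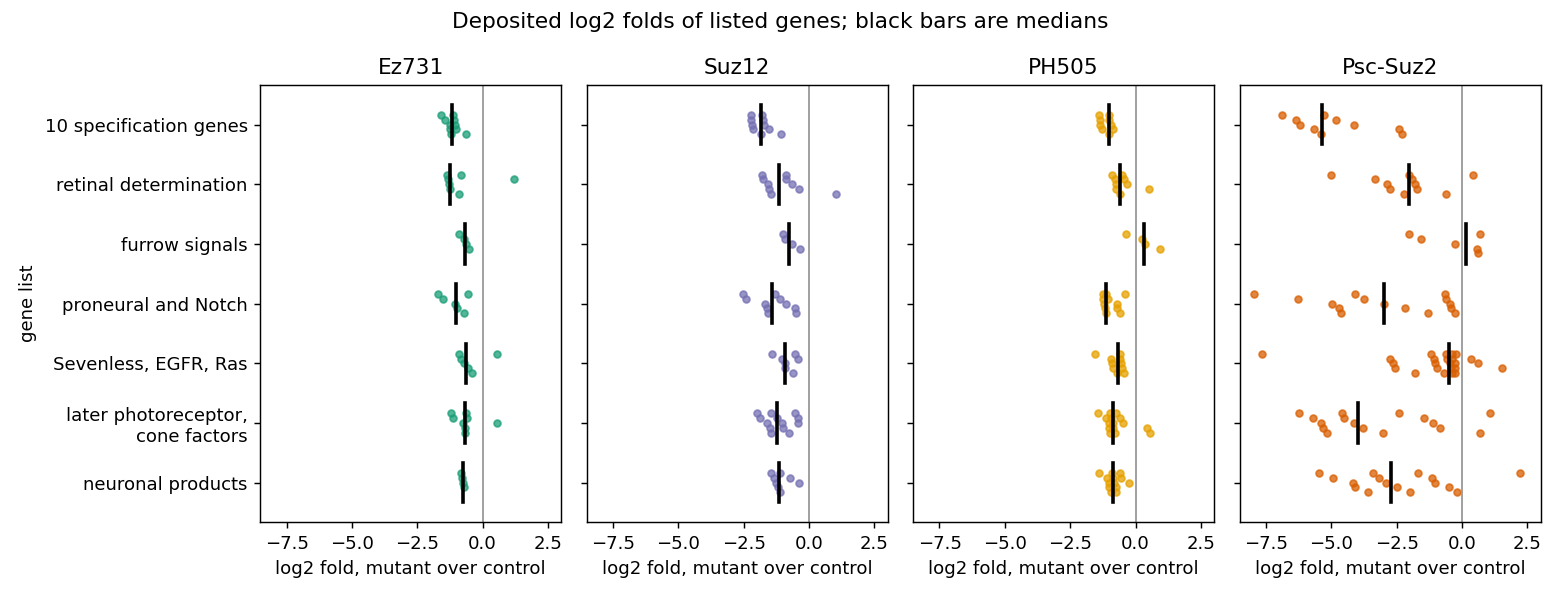
Log2 folds (mutant over control) of every listed gene by gene list, 1 panel per mutant, with black bars at the medians of the listed genes. The 10 specification genes have medians of −1.17, −1.82, −1.03 and −5.34, and furrow signals lie on both sides of 0 in PH505 and Psc-Suz2.

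The listed genes of the signal cascade had smaller median folds than the members. Of 26 Sevenless, EGFR and Ras genes, 5 were lower in Ez731, 7 in Suz12, 10 in PH505 and 21 in Psc-Suz2, with median log2 folds of −0.63, −0.92, −0.66 and −0.51 in the authors' deposited tables. Of all tested genes, 6.41%, 8.73%, 14.6% and 33.9% were called lower in the same order. The protease gene ru, which releases EGFR ligands behind the furrow, fell furthest of this list in each table, with −0.89, −1.43, −1.54 and −7.65. The EGFR inhibitor gene aos stood at −0.55, −0.92, −0.92 and −2.74 in the same deposited tables of the authors. In Psc-Suz2, rho (−2.63), edl (−2.58) and Egfr (−1.80) were also well below the median of the list in the authors' deposited table. The repressor gene aop (−0.71, −0.94, −0.72 and −1.09) was lower in each, and its opponent pnt, the activator gene of the pathway, was lower in Ez731, Suz12 and PH505 (−0.84, −1.05 and −0.45) and not listed in Psc-Suz2, in the authors' deposited tables. Several parts of the cascade were listed in Psc-Suz2 alone, among them Ras85D (−0.39), Sos (−0.37), sina (−0.41) and drk, which was higher (0.63), in the authors' deposited table. The MEK gene Dsor1 was also lower in Ez731 (−0.39, and −1.03 in Psc-Suz2), and RasGAP1 in Suz12 (−0.60, and −0.95 in Psc-Suz2), in the authors' deposited tables. The EGFR ligand gene vn was higher in Ez731 and Psc-Suz2 (0.56 and 1.52), and spi, another ligand gene, in Psc-Suz2 (0.32), in the authors' deposited tables.

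The furrow signals did not all fall. The gene hh, made by the differentiating cells to drive the furrow, had log2 folds of −0.63, −0.94 and −2.04 in Ez731, Suz12 and Psc-Suz2 in the authors' deposited tables and is not listed in PH505. Its target dpp was lower in Suz12 (−0.34) and higher in PH505 and Psc-Suz2 (0.93 and 0.57), and ci, the transcription factor gene of the pathway, was at −0.91, −0.99, 0.25 and 0.68 in the authors' deposited tables. The receptor gene ptc was at −0.52, −0.63, 0.37 and −0.29, and hry (hairy), which holds back differentiation ahead of the furrow, at −0.70 in Ez731 and 0.61 in Psc-Suz2, in the authors' deposited tables. The gene emc was at −0.37 in PH505 and −1.56 in Psc-Suz2 in the authors' deposited tables. Of 8 furrow genes, 4 were lower in Ez731 and 4 in Suz12 with none higher, 1 lower and 3 higher in PH505, and 3 lower and 3 higher in Psc-Suz2. Of all tested genes, 6.41%, 8.73%, 14.6% and 33.9% were called lower in the order Ez731, Suz12, PH505 and Psc-Suz2. Called higher were 3.46%, 5.89%, 12.1% and 35.5%, and both furrow counts in Psc-Suz2 were near these shares. Upstream of ato, the retinal determination genes eya (−1.23, −1.80, −0.76 and −5.03) and so (−0.81, −1.46, −0.73 and −2.76) and the Pax6 genes ey (−1.30, −1.57, −0.35 and −2.21) and toy (−1.36, −1.52, −0.78 and −1.92) were lower, while Optix was lower in Ez731 and Suz12 (−0.90 and −0.87) and higher in PH505 and Psc-Suz2 (0.52 and 0.40), in the authors' deposited tables. The progenitor gene tsh was higher in Ez731 and Suz12 (1.20 and 1.05) and lower in PH505 and Psc-Suz2 (−0.60 and −2.01) in the authors' deposited tables. Of 11 retinal determination genes, 6, 9, 8 and 10 were lower in the order Ez731, Suz12, PH505 and Psc-Suz2, and 1 was higher in each. The shares of all tested genes are those set beside the furrow genes.

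The genes whose folds were most like those of the members were found among the 324 other genes listed in all 4 tables, by the Euclidean distance over the 4 log2 folds to the median of the 9 members listed in each. The median profile was −1.20, −1.85, −1.03 and −5.39 in the authors' deposited tables. The nearest was danr at a distance of 0.0919, then DIP-delta (0.149), DAT (0.389), eya (0.453), GstZ2 (0.461), E(spl)m4-BFM (0.465), Hmx (0.501) and CG43861 (0.649). For single members the nearest genes were E(spl)m4-BFM for ato and sens, superdeath for sev, phyl and ro, danr for gl, E(spl)m8-HLH for boss, CG3961 for lz, and FBgn0029082 for sca. Of the 324 genes, 179 (55.2%) were lower in all 4 tables, so a shared direction was common among them. By correlation over the 4 folds, only 2 of the 8 nearest genes were shared. The likeness rests on 4 comparisons, 2 of which share a control.

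The discs held retina in every control. The retina markers ey, toy, so, eya, dac and Optix had implied levels of 82.7 to 509 CPM in the controls in 23 of 24 values, and dac is not listed in PH505. Other tissues differed between groups too: summed fat body markers, 6 of 6 listed, were at 388.8 CPM in Ez731 and 384.4 CPM in Suz12 against 2892 CPM in FRT2A, and at 61.7 CPM in PH505 against 581.8 CPM in FRT19A. In Psc-Suz2 only 2 of the 6 were listed, 1 higher and 1 lower, with a sum of 56.9 CPM against 69 CPM in FRT42D. Listed muscle markers summed to 348.6 CPM in Ez731 and 307.9 CPM in Suz12 against 741.8 CPM in FRT2A, to 74.6 CPM in PH505 against 227.9 CPM in FRT19A, and to 1062 CPM in Psc-Suz2 against 1030 CPM in FRT42D. All listed muscle markers were lower in Ez731 (5 of 10), Suz12 (5) and PH505 (7), and in Psc-Suz2 5 were lower and 3 higher, with a median log2 fold of −3.19 in the authors' deposited table. Of 5 antenna markers, 2 were lower and none higher in Ez731, 2 lower and 1 higher in Suz12, 4 lower and 1 higher in Psc-Suz2, and in PH505 only disco was listed, as higher. Of 6 glia markers, 2 were lower and 1 higher in each of Ez731, Suz12 and PH505, and 2 lower and 4 higher in Psc-Suz2, and repo, the defining gene of glia, was listed in Psc-Suz2 alone (log2 fold −2.92 in the authors' deposited table). Of all tested genes, 6.41%, 8.73%, 14.6% and 33.9% were called lower in the order Ez731, Suz12, PH505 and Psc-Suz2, and 3.46%, 5.89%, 12.1% and 35.5% higher. The part of these tissues in the results was not tested.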

How the data were processed

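Eye disc RNA-seq was used from 4 mutants and 3 FRT controls. The 7 ChIP-seq region lists were not used, since the sources used here name no build for them. The submitters' processing notes name edgeR 2.6.2, TopHat2 2.0.8b, Bowtie2 2.1.0.0 and the build BDGP5. The sources used here do not say how replicates entered the authors' test or how reads were counted. The authors computed the log2 folds and log2 CPM values, per the file headers. Each deposited p-value and false discovery rate is theirs too, and only genes under 5% are listed, so a gene without a row may or may not have changed. No model was fitted to counts and no test was added. Read depth is unknown.

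The number of tested genes (8934, 8907, 8804 and 8886) was recovered from each gene's p, its rank and its false discovery rate. Implied CPM came from log2 fold and log2 CPM, as the report states. Both steps recovered the known values in simulated data built with the same formulas. That checks the arithmetic and cannot test how the deposited log2 CPM should be read. Symbols came from a table of FlyBase identifiers, in which all 158 list genes matched, 4 through a synonym. Overlaps and neighbours came from the RefSeq gene order of Release 6. The members and the 13 other lists were chosen with earlier results of these data known. Named list genes are those in most tables, then those with the largest median fold, up to 6 per list, and list genes that went against their list. Ras85D, Sos, sina, Dsor1, RasGAP1 and Egfr were named after their values were seen. Levels were set across tables normalized separately. Python 3.11.15, numpy 2.4.6, pandas 2.3.3 and matplotlib 3.10.9 were used. Alternatives were a 1% false discovery rate, at least 2-fold, log2 CPM at or above the table median, the PH505 table turned, and another reading of log2 CPM.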

Additional observations from a re-analysis of the deposited data

How the results depend on the processing

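No member was lost at a false discovery rate of 1% in Suz12, PH505 or Psc-Suz2, and in Ez731 boss was lost (9 left, median log2 fold −1.20). At 2-fold or more, 9 members were left in Ez731 (median −1.20) and 6 in PH505 (median −1.31), and all 10 in Suz12 and Psc-Suz2. At or above the table's median log2 CPM, 7 members were left in Ez731 (median −1.14), 7 in Suz12 (−1.80), 5 in PH505 (−1.0) and 6 in Psc-Suz2 (−4.76). With the PH505 table turned, 0 of its 9 listed members would be lower and the median would be 1.03. With log2 CPM read as the mean of the 2 groups' log2 CPM, median levels of the members were 34 CPM in Ez731 against 77.9 CPM in FRT2A, 23.9 in Suz12 against 86.2, 51.3 in PH505 against 104.4 in FRT19A, and 11.1 in Psc-Suz2 against 172.7 in FRT42D. As used in the report they were 30.5 against 72.9, 18.9 against 72, 48.2 against 98.1 and 2.34 against 90.8 CPM. That other reading left the FRT2A level differing by a median of 0.0502 between tables, and by up to 0.243 for 90% of genes, on the log2 scale. By correlation over the 4 folds, 2 of the 8 genes most like the members were shared. Of 24 counts of lower genes in the 6 other pathway lists, 23 at a false discovery rate of 1%, 8 at 2-fold or more and 18 with the log2 CPM minimum stayed within 1.5 times, in alternatives added after seeing the data. The largest recovered number of tested genes was the one used. Leaving out a replicate was not run, as the tables hold no value per replicate, nor was the planned promoter motif search. No paired analysis was possible because each group was 1 sample. Members under 1 CPM in Psc-Suz2 have folds that are the least certain in size, and their read counts are unknown.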

Other observations

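The control level of most members was alike in the 3 strains, each on its own table's normalization. Across FRT2A (Ez731 table), FRT19A and FRT42D it was 8.3, 7.82 and 8.1 CPM for boss, 20.4, 20.5 and 19 CPM for ro, and 299.7, 321.1 and 300.9 CPM for gl. The receptor gene sev and the Runx gene lz were higher in FRT19A, at 427.5 CPM for sev against 320.7 in FRT2A and 334.2 in FRT42D, and at 127.5 CPM for lz against 92.5 and 108. These are the 2 members on the X chromosome, and whether that bears on their levels was not tested.

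Of the 20 protein-coding genes next to the members in the Release 6 gene order, 2 were listed as lower in Ez731, 2 in Suz12, 4 in PH505 and 7 in Psc-Suz2, where 6.41%, 8.73%, 14.6% and 33.9% of all tested genes were called lower. Listed as higher were 1, 1, 1 and 4 of them, where 3.46%, 5.89%, 12.1% and 35.5% of all tested genes were called higher. The count of lower neighbours in Psc-Suz2 was near the share of all tested genes. The neighbour Achl of phyl had log2 folds of −2.03, −2.20, −1.03 and −4.63 in the authors' deposited tables, and phyl −1.20, −2.15, −1.36 and −6.35. It and Vago, next to sev, at −2.60 in Ez731 and −2.85 in Suz12 in the authors' deposited tables, were named after their values were seen.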
